A study of Canis lupus familiaris with 32 samples.

Results

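The genes described here encode RNA splicing factors, and their level was followed in dog skin after a patch of house dust mite allergen. They were taken by name from the authors' deposited table of 17107 genes: BCLAF1, and every gene whose name starts with SRSF and a digit, with HNRNP, with SF3A or SF3B and a digit, or with SNRP. This gave 44 genes, of which 10 are SRSF, 17 HNRNP, 8 SF3 and 8 SNRP genes. The array values carry no gene names, and 23 of the 44 genes could be linked to exactly 1 probe set by equal folds and p-values: BCLAF1, 4 SRSF, 9 HNRNP, 5 SF3 and 4 SNRP genes. For the other 21 genes only the authors' folds and p-values are given. These names were chosen because of their values at 6 h, so the 6 h values and calls below are a description, given with no p-value for these genes.

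The samples were 32 skin biopsies from 8 Maltese-beagle atopic dogs, 5 males and 3 females aged 5.5 to 10.5 years, and each dog gave 1 biopsy to each of 4 groups of 8 arrays. All dogs had been sensitized through the skin to the mite Dermatophagoides farinae and had been picked because the allergen gave them acute lesions, so no group holds healthy or non-sensitized skin. The control was skin of the mineral oil side at 6 h, and the other groups were skin at 6 h, 24 h and 48 h after the allergen patch on the lateral thorax. There was no oil control at 24 h or 48 h, so the time since patching and the allergen cannot be told apart in those comparisons. All 3 comparisons with the control use the same 8 control arrays.

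Splicing removes introns from the primary transcript and joins the exons. It is carried out by small nuclear ribonucleoproteins (snRNPs), whose shared Sm proteins and particle-specific proteins are encoded by the SNRP genes, while the SF3A and SF3B complexes let the U2 snRNP hold the branch site of the intron. SR proteins (SRSF genes) mostly bind exons and favour their inclusion, and hnRNP proteins (HNRNP genes) coat the transcript and often oppose inclusion. BCLAF1 is a nuclear protein rich in arginine and serine that associates with its relative THRAP3 in the splicing and export of mRNA. The roles named here are those known from human cells.

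Keratinocyte markers had a mean well above the array median, which lay between 4.64 and 4.91 on the log2 scale. The mean of 7 linked of 14 markers was 9.28 ± 0.30 (SD, n = 8) in control skin. The lowest of them, TP63, lay below the array medians, at 4.07 on average over all arrays. Skeletal muscle also entered the biopsies. The mean of 5 linked of 19 muscle markers ranged over the arrays from 3.63 to 9.64 in control skin, from 3.96 to 9.67 at 6 h, from 2.94 to 8.93 at 24 h and from 3.19 to 3.42 at 48 h, and the lowest of these genes was CASQ1. It was above 6 on 10 arrays, namely 3 of the control, 5 of the 6 h, 2 of the 24 h and 0 of the 48 h group. The difference between the 3′ and 5′ beta-actin control probe sets, which grows when RNA is broken or copied incompletely, averaged 2.27 ± 0.32 (SD) in the control group, with 2.78 ± 0.48 in the 6 h group, 2.08 ± 0.37 in the 24 h group and 1.79 ± 0.29 in the 48 h group. This difference exceeded the control's in 7 of 8 dogs at 6 h (exact permutation test over sign changes within dogs, two-sided, adjusted p = 0.0511) and in 0 of 8 dogs at 48 h (adjusted p = 0.0268, exact). Another 3′ and 5′ beta-actin pair, not used in the models, was lower than control at 6 h in most dogs. In dogs 1 to 8 it was 1.48, 1.08, 1.48, -0.77, 1.59, 1.86, 0.33 and 1.20 in control skin. At 6 h it was 0.16, 0.02, 0.24, 1.99, -0.45, -0.31, 1.49 and 1.01. The 2 pairs thus did not move together at 6 h. The muscle marker mean at 6 h was 9.25, 9.21, 9.30, 9.45 and 9.67 in dogs 1, 2, 3, 5 and 6. It was 4.07, 4.42 and 3.96 in dogs 4, 7 and 8. In control skin it was 9.64 in dog 4, 8.4 in dog 7 and at most 6.61 in the others. The part of muscle in the second pair was not tested. T cell markers (5 of 9 linked) ranged from 3.68 to 4.18 in control skin and from 4.56 to 6.37 at 48 h, and were higher in 8 of 8 dogs at 48 h (adjusted p = 0.0268, exact permutation). Macrophage and monocyte markers (6 of 9 linked) ranged from 4.92 to 5.71 in control skin and from 5.89 to 6.72 at 48 h.

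At 6 h, 21 of the 23 linked genes were lower than control and 2 were higher. The median difference was -0.23 on the log2 scale, beside 0.01 over all 10512 linked genes. In each of the 8 dogs the median over the 23 genes was below the dog's own control, and between 15 and 21 of the 23 genes were lower. Without the 10 muscle-rich arrays the 6 h median was -0.10, and 18 genes were lower and 5 higher (SF3A2, SF3A3, SF3B1, SNRPA and SRSF12). In that fit only dog 8 had both its control and its 6 h array. By 24 h, 15 genes stood above control and 8 below, with a median of 0.05, and the dog's own median was below 0 in 3 dogs. By 48 h the split was again 15 above and 8 below, with a median of 0.14, and the dog's own median was below 0 in 0 of 8 dogs. From 6 h to 24 h, and likewise from 6 h to 48 h, 20 of 23 genes had a higher mean, with a median difference over the 23 of 0.24 and 0.34. Because the names were chosen for low 6 h values, a higher mean against the 6 h arrays is partly fixed by that choice and nothing is read from it. The choice also used the control arrays, so it can favour decreases from control at 24 h and 48 h. The p-values of those decreases do not allow for this. In bulk skin, fewer cells of a type and less RNA per cell cannot be told apart.

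Calls were read from a within-dog limma model over 42860 probe sets at an adjusted p of 0.05. At 6 h the model called 0 genes higher and 6 lower (BCLAF1, HNRNPD, HNRNPF, HNRNPR, HNRNPU and SRSF11), where 4.08% of all linked genes were called lower and 0.323% higher, and nothing is read from this count because the names were chosen on this comparison. Of these 6 calls, 1 was made without dog 1, 2 without dog 3 and 2 without dog 8. With the actin difference in the model there were 0 such calls, with the muscle score 3, and without the 10 muscle-rich arrays 0. Over all 42860 probe sets these fits called 0, 592 and 0 at 6 h, beside 1239 in the main model. Without the muscle-rich arrays only dog 8 kept both its control and its 6 h array, so that 6 h comparison rests largely on arrays of different dogs. Without dogs 1, 3 and 8 the calls over all probe sets were 398, 283 and 583. At 24 h, 3 of 23 genes rose (HNRNPD, SF3B14 and SNRPA) and 3 fell (BCLAF1, SRSF10 and SRSF11), against 3.63% of all linked genes called higher and 7.22% called lower. With each array centred on its median the split at 24 h was 6 higher and 2 lower. The 24 h count of 6 was 3 without dog 3 and 2 without the muscle-rich arrays. Over all probe sets these fits called 2131 and 2238 at 24 h, beside 3509 in the main model.

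At 48 h, 9 of 23 genes rose (HNRNPA1L2, HNRNPC, HNRNPD, HNRNPH2, HNRNPU, SF3A3, SF3B14, SNRPA and SNRPA1) and 4 fell (BCLAF1, SRSF10, SRSF11 and SF3B2), against 12.2% of all linked genes called higher and 10.9% called lower. The count of 13 became 4 rises and 4 falls with the actin difference in the model, 6 and 4 with the muscle score, 5 and 4 without the muscle-rich arrays, and 7 and 5 after quantile normalization. Over all probe sets these fits called 5448, 6700, 6283 and 8518 at 48 h, beside 8438 in the main model. From 24 h to 48 h, the comparison that uses neither the control nor the 6 h arrays, 0 of 23 genes were called in limma, where 2.85% of all linked genes were. At an unadjusted p under 0.05 there were 5, namely HNRNPC, HNRNPH2, SF3A3 and SNRPA upward and SRSF12 downward. Of all 10512 linked genes, 1485 were under 0.05 in the same model. Without the dog as a block there were 4 of the 23. Without dog 7, SF3A3 was called in that comparison, at 0.26 with an adjusted p of 0.0310.

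**Figure D1:**
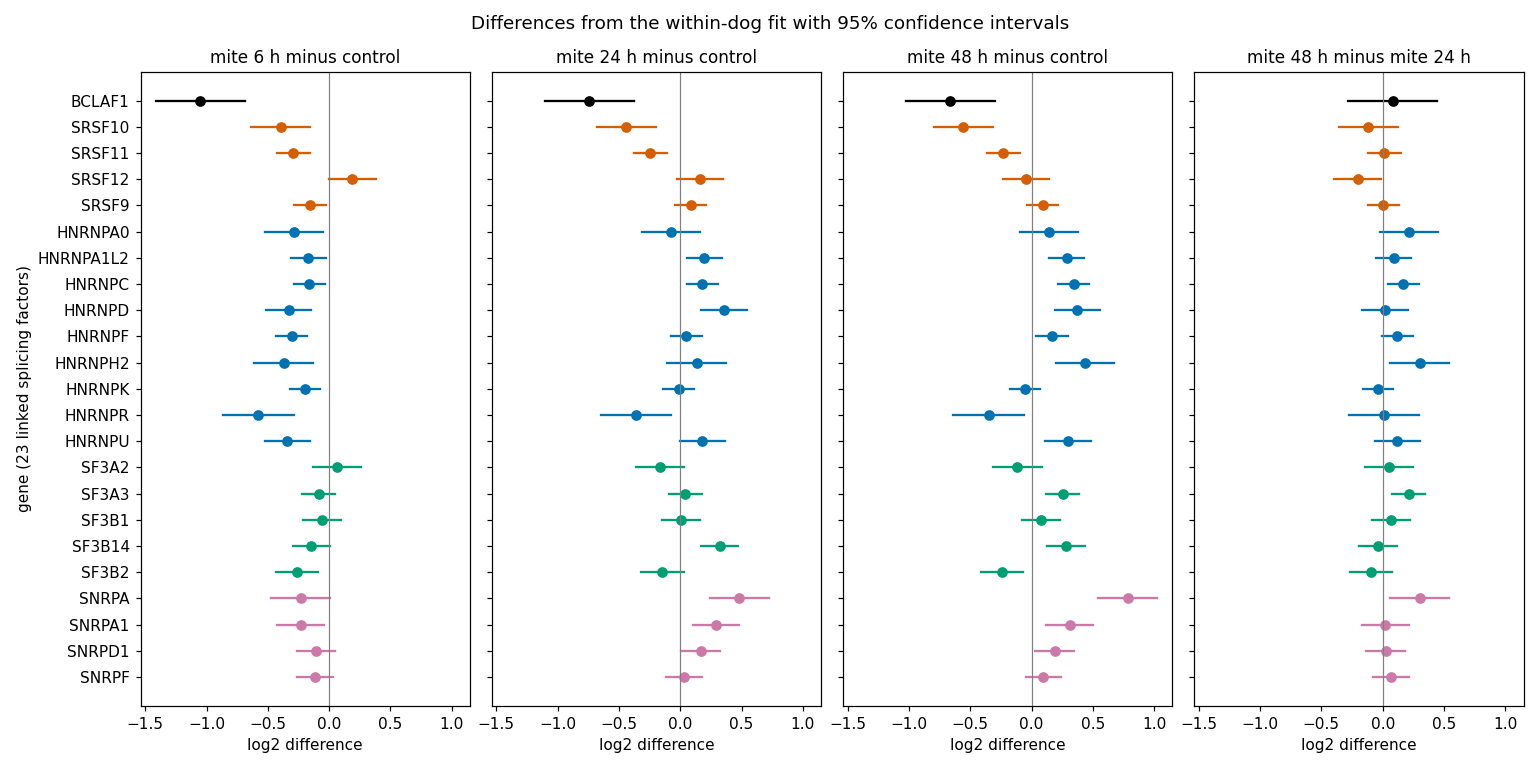
Differences in log2 signal for the 23 linked splicing genes, 1 row per gene, in 4 panels: 6 h, 24 h and 48 h against control, and 48 h against 24 h. Points are estimates of the within-dog model with 95% confidence intervals. The 6 h intervals make no allowance for the choice of these genes by their 6 h values. BCLAF1 lies farthest to the left at 6 h, at -1.05, and SNRPA farthest to the right at 48 h, at 0.78.

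BCLAF1 had the largest difference from control at 6 h of the 23 genes, and it was below control at 24 h and 48 h too. Its log2 signal in control skin had a lowest, median and highest value of 5.47, 5.61 and 5.84, so its probe set is not far above the array median. At 6 h the 3 values were 3.88, 4.58 and 5.45, and every 6 h array lay below every control array. At 24 h they were 4.31, 4.87 and 5.50, and at 48 h 3.95, 5.04 and 5.55, both overlapping the control by a little.

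The mean of BCLAF1 was 5.63 ± 0.14 (SD, n = 8) in control skin and 4.58 ± 0.63 at 6 h, lower by 1.05 and lower in 8 of 8 dogs. It fell by 0.74 at 24 h (adjusted p = 0.00853, lower in 7 of 8 dogs) and by 0.66 at 48 h (adjusted p = 0.00822, lower in 8 of 8 dogs). From 24 h to 48 h the difference was 0.08, with a 95% confidence interval of -0.28 to 0.44 (adjusted p = 0.897). Both the 24 h and the 48 h call remained in all 20 alternative analyses. All of these use control arrays that served in choosing the gene, so they cannot remove an effect of that choice. Adipocyte markers (6 of 8 linked, the lowest LEP) were also below control, by 1.08 at 24 h and 1.47 at 48 h. Fibroblast markers (5 of 9 linked) were below it by 0.49 at 24 h, in 8 of 8 dogs (adjusted p = 0.0268, exact permutation). T cell markers were above it by 0.62 at 24 h (adjusted p = 0.0417, exact permutation), and keratinocyte markers were below it by 0.29 at 6 h in 7 of 8 dogs (adjusted p = 0.0804, exact permutation). The part of these markers in the differences of the splicing genes was not tested.

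The 6 h arrays differed among themselves in BCLAF1. Dogs 1, 3 and 4 had 3.88, 3.98 and 3.90, and their actin differences were 3.30, 3.43 and 2.99. Dogs 2, 5 and 7 had 5.06, 5.22 and 5.45, with actin differences of 2.35, 2.32 and 2.57. Dogs 6 and 8 had 4.37 and 4.78, with actin differences of 3.09 and 2.17. The muscle score was 9.25, 9.30 and 4.07 in dogs 1, 3 and 4, 9.21, 9.45 and 4.42 in dogs 2, 5 and 7, and 9.67 and 3.96 in dogs 6 and 8. With the actin difference in the model, the BCLAF1 difference was -0.62 at 6 h, -0.92 at 24 h (adjusted p = 0.00044) and -1.08 at 48 h (adjusted p = 0.00031).

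**Figure D2:**
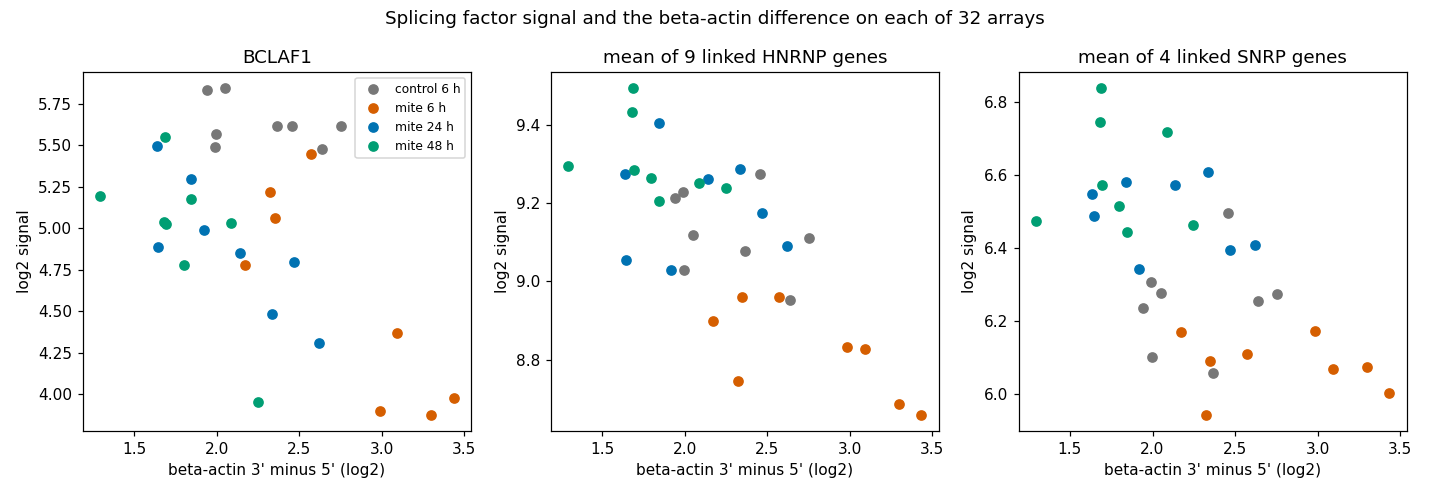
Log2 signal of BCLAF1, the mean of 9 HNRNP genes and the mean of 4 SNRP genes (vertical axes) against the beta-actin 3′ minus 5′ difference in log2 units (horizontal axis), 1 point per array and 1 colour per group. The 6 h arrays reach the largest actin differences and the lowest BCLAF1 values, and the 48 h arrays have the smallest mean actin difference, 1.79.

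Among the SR protein genes, SRSF10 and SRSF11 were low at every time. SRSF10 encodes an SR protein that acts as a splicing repressor when dephosphorylated, as in heat shock. Its lowest, median and highest values were 5.46, 5.92 and 5.98 in control skin, 5.17, 5.40 and 5.79 at 6 h, 4.84, 5.50 and 5.84 at 24 h, and 4.92, 5.29 and 5.63 at 48 h. The 2 lowest control arrays, at 5.46 and 5.52, lay within the range of the 48 h arrays. SRSF10 was lower by 0.39 at 6 h, fell by 0.44 at 24 h (adjusted p = 0.0181) and fell by 0.56 at 48 h (adjusted p = 0.0011), each in 8 of 8 dogs. Its 24 h call was lost without dog 5 and without the muscle-rich arrays, while its 48 h call remained in all 20 alternatives. Like BCLAF1, SRSF10 and SRSF11 were measured against the control arrays used in choosing them.

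SRSF11 encodes an SR protein that contacts the U2AF factor at the 3′ splice site. In control skin its lowest, median and highest values were 5.33, 5.55 and 5.75, and at 6 h they were 5.04, 5.20 and 5.75, the top value being dog 7. The 24 h values ran from 5.22 to 5.47 and the 48 h values from 5.23 to 5.48, overlapping the lower control arrays. SRSF11 was lower by 0.29 at 6 h, fell by 0.25 at 24 h (adjusted p = 0.0184) and fell by 0.23 at 48 h (adjusted p = 0.0125), with 8 of 8 dogs lower at the later times. The 24 h call was lost in 7 of 20 alternatives, among them quantile normalization (adjusted p = 0.0585), median centring (adjusted p = 0.062) and leaving out dogs 2, 3 or 8. The 48 h call was lost without dog 8 (adjusted p = 0.0637).

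The other 2 linked SRSF genes did not pass at 24 h or 48 h. SRSF9, a brightly measured SR protein gene with a control median of 11.09, was lower by 0.16 at 6 h and differed by 0.08 at 24 h (adjusted p = 0.48) and by 0.09 at 48 h (adjusted p = 0.351). SRSF12 encodes an SR-like protein that counteracts other SR proteins, and it was 1 of the 2 linked genes above control at 6 h, by 0.19. Its differences at 24 h and 48 h were 0.16 (adjusted p = 0.336) and -0.05 (adjusted p = 0.793). Of the 6 SRSF genes without a linked probe set (SRSF1, SRSF3, SRSF4, SRSF5, SRSF6 and SRSF7), all had a fold between -1.2 and -1.4 at 6 h in the authors' deposited table, where a negative fold is the inverse ratio. None of these 6 had an adjusted p under 0.05 at any time there. SRSF3 came nearest, with a fold of 1.2 and a p of 0.05 at 48 h in the authors' deposited table.

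**Figure D3:**
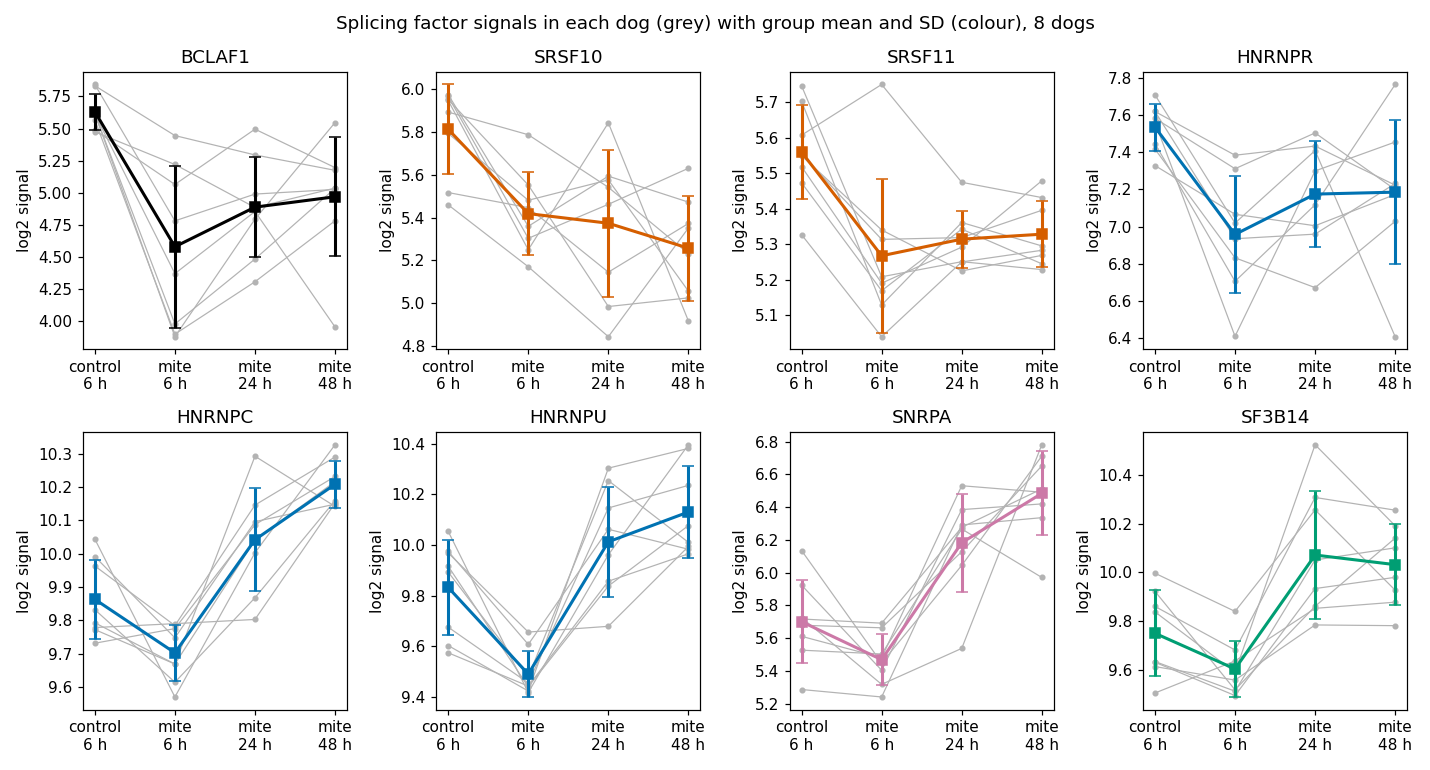
Log2 signal of 8 splicing genes (BCLAF1, SRSF10, SRSF11, HNRNPR, HNRNPC, HNRNPU, SNRPA and SF3B14) in control skin and at 6 h, 24 h and 48 h after the allergen. Grey lines join the arrays of 1 dog and coloured points give the mean with the SD of 8 dogs; BCLAF1, SRSF10 and SRSF11 have lower means than control at all 3 times, and HNRNPC, HNRNPU, SNRPA and SF3B14 have lower means at 6 h and higher means at 48 h.

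Most HNRNP genes were above control at 48 h. All 9 linked HNRNP genes were lower than control at 6 h. Their median was -0.31 in the values as deposited and after median centring, -0.29 after quantile normalization, -0.21 with the actin difference in the model and -0.14 without the muscle-rich arrays, and all 9 were lower in each of these. At 24 h, 6 of 9 were above control (median 0.13) and 1 passed the test, upward. At 48 h, 7 of 9 were above control (median 0.29), 5 passed upward and 0 passed downward. Of all linked genes, 3.63% were called higher and 7.22% lower at 24 h, and 12.2% and 10.9% at 48 h. With the actin difference in the model 2 passed upward and 1 downward at 48 h (median 0.17), and the 24 h median was 0.05. T cell and macrophage marker means were also higher at 48 h than in control skin, by 1.47 and 0.90, and their part in the 48 h differences was not tested.

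HNRNPC encodes a protein that binds uridine-rich tracts and competes with U2AF for them. Its lowest, median and highest values were 9.73, 9.81 and 10.04 in control skin, 9.57, 9.71 and 9.79 at 6 h, 9.80, 10.06 and 10.29 at 24 h, and 10.14, 10.19 and 10.33 at 48 h. Every 48 h array lay above every control array. The difference was -0.16 at 6 h and 0.18 at 24 h (adjusted p = 0.0723), and HNRNPC rose by 0.35 at 48 h (adjusted p = 0.000196, 8 of 8 dogs). That 48 h call remained in all 20 alternatives.

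HNRNPD encodes AUF1, which binds AU-rich elements and takes part in the decay of cytokine and other short-lived mRNAs. The lowest, median and highest values were 8.35, 8.52 and 8.99 in control skin, 7.94, 8.30 and 8.60 at 6 h, 8.65, 8.94 and 9.32 at 24 h, and 8.78, 8.92 and 9.24 at 48 h. The control range overlapped all the others. HNRNPD was lower by 0.33 at 6 h and rose by 0.36 at 24 h (adjusted p = 0.0132) and 0.37 at 48 h (adjusted p = 0.00375), in 7 of 8 dogs each. Leaving out dog 3 or dog 7 ended the 24 h call, with adjusted p up to 0.0581, and the actin difference in the model ended the 48 h call (0.32, adjusted p = 0.0697).

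HNRNPU, which encodes a scaffold attachment factor of the nucleus, ran from 9.57 to 10.05 in control skin with a median of 9.90, and from 9.42 to 9.66 at 6 h with a median of 9.45. At 24 h the lowest, median and highest values were 9.68, 10.01 and 10.30, and at 48 h 9.96, 10.04 and 10.40. The 6 h arrays overlapped the control range only at its lower end. HNRNPU was lower by 0.34 at 6 h and differed by 0.18 at 24 h (adjusted p = 0.247), and it rose by 0.30 at 48 h (adjusted p = 0.0187, 8 of 8 dogs). That call was lost in 7 of 20 alternatives, among them quantile normalization (adjusted p = 0.0746), the actin difference (adjusted p = 0.27), the muscle score (adjusted p = 0.0889) and leaving out dogs 3, 4 or 5.

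HNRNPH2 and HNRNPF encode related proteins that bind runs of guanines. HNRNPH2 had lowest, median and highest values of 5.62, 6.18 and 6.59 in control skin, 5.48, 5.76 and 6.03 at 6 h, 6.01, 6.23 and 6.57 at 24 h, and 6.12, 6.61 and 6.95 at 48 h, so its groups overlapped the control throughout. It was lower by 0.37 at 6 h, differed by 0.13 at 24 h (adjusted p = 0.562) and rose by 0.44 at 48 h (adjusted p = 0.00849, 7 of 8 dogs). With the actin difference in the model the 48 h value was 0.16 (adjusted p = 0.452). HNRNPF was lower by 0.31 at 6 h, differed by 0.05 at 24 h (adjusted p = 0.713) and by 0.17 at 48 h (adjusted p = 0.0599), where it was higher in 8 of 8 dogs. After median centring the 48 h value of HNRNPF was 0.19 (adjusted p = 0.0187).

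HNRNPA1L2, an HNRNPA1-like gene whose probe set may also read other HNRNPA1 copies, was lower by 0.17 at 6 h in 8 of 8 dogs. It differed by 0.20 at 24 h (adjusted p = 0.0837) and rose by 0.29 at 48 h (adjusted p = 0.00396, 8 of 8 dogs), a call that remained in all 20 alternatives. HNRNPR, whose protein is a close relative of SYNCRIP, departed from the class. Its lowest, median and highest values were 7.33, 7.57 and 7.71 in control skin, 6.41, 6.98 and 7.38 at 6 h, 6.67, 7.21 and 7.50 at 24 h, and 6.41, 7.21 and 7.76 at 48 h. The 48 h arrays covered the control range and reached further down. HNRNPR was lower by 0.58 at 6 h, and its later differences were -0.36 at 24 h (adjusted p = 0.119, lower in 8 of 8 dogs) and -0.35 at 48 h (adjusted p = 0.081, lower in 7 of 8 dogs). With the actin difference in the model these were -0.48 (adjusted p = 0.021) and -0.63 (adjusted p = 0.00729).

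The last 2 linked HNRNP genes did not pass at 24 h or 48 h. HNRNPK, whose protein binds cytosine-rich tracts, was lower by 0.20 at 6 h in 8 of 8 dogs and differed by -0.01 at 24 h (adjusted p = 0.925) and -0.05 at 48 h (adjusted p = 0.623). HNRNPA0 was lower by 0.29 at 6 h, with differences of -0.07 at 24 h (adjusted p = 0.771) and 0.14 at 48 h (adjusted p = 0.45).

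The linked SNRP genes were below control at 6 h and above it later. All 4 linked SNRP genes were below control at 6 h (median -0.17) and above it at 24 h (median 0.23) and at 48 h (median 0.25), although without the muscle-rich arrays SNRPA was 0.03 above control at 6 h, SNRPF was 0.05 below it at 24 h and the 6 h median was -0.03. At 24 h 1 passed upward and at 48 h 2 did, where 3.63% and 12.2% of all linked genes were called higher. Those counts were 0 and 1 without the muscle-rich arrays, and 1 and 1 with the actin difference.

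SNRPA encodes the A protein of the U1 snRNP that recognises the 5′ splice site. Its lowest, median and highest values were 5.29, 5.70 and 6.14 in control skin, 5.24, 5.46 and 5.69 at 6 h, 5.54, 6.27 and 6.53 at 24 h, and 5.97, 6.50 and 6.78 at 48 h. The lowest 48 h arrays overlapped the highest control arrays. SNRPA was lower by 0.23 at 6 h in 8 of 8 dogs. It rose by 0.48 at 24 h (adjusted p = 0.0107, 6 of 8 dogs) and by 0.78 at 48 h (SE 0.12, 95% confidence interval 0.54 to 1.03, adjusted p = 2.88e-05, 8 of 8 dogs), the largest change of the 23 genes at 48 h. The 24 h call was lost without dog 3 and without the muscle-rich arrays (adjusted p up to 0.0837), and the 48 h call remained in all 20 alternatives.

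SNRPA1 encodes a protein specific to the U2 snRNP. Control values ran from 8.05 to 8.48 with a median of 8.39, 6 h values from 7.87 to 8.34 with a median of 8.12, and 48 h values from 8.38 to 8.93 with a median of 8.65. The lowest 48 h value, 8.38, lay just below the control median of 8.39, so the upper control arrays lay within the 48 h range. SNRPA1 was lower by 0.23 at 6 h, differed by 0.29 at 24 h (adjusted p = 0.0517) and rose by 0.31 at 48 h (adjusted p = 0.0178, 7 of 8 dogs). The 48 h call was lost in 6 of 20 alternatives, among them the actin difference (0.23, adjusted p = 0.219), the muscle score (adjusted p = 0.0863), quantile normalization (adjusted p = 0.0597) and leaving out dogs 3 or 4. SNRPD1 and SNRPF encode proteins of the Sm ring that all these particles share. SNRPD1 differed by -0.11 at 6 h, 0.17 at 24 h (adjusted p = 0.208) and 0.19 at 48 h (adjusted p = 0.0861). SNRPF was measured by a very dim probe set, with a mean of 1.77 over all arrays, so its difference of 0.10 at 48 h (adjusted p = 0.379) carries little information.

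The SF3 genes had the class median nearest 0 at 6 h, -0.09, with 4 of 5 below control. At 48 h 2 of 5 rose and 1 fell, where 12.2% of all linked genes rose and 10.9% fell. Without the muscle-rich arrays the 6 h median was 0.01, with 3 of 5 above control, and at 48 h 0 rose and 1 fell. SF3B14 encodes the small SF3B subunit that contacts the branch-point adenosine. It was lower by 0.15 at 6 h and then rose by 0.32 at 24 h (adjusted p = 0.00696) and 0.28 at 48 h (adjusted p = 0.0074), in 7 of 8 dogs each. Its control values had a lowest, median and highest of 9.50, 9.74 and 9.996, its 6 h values 9.49, 9.57 and 9.84, its 24 h values 9.78, 9.99 and 10.52 and its 48 h values 9.78, 10.04 and 10.26, with overlap in each case. Without the muscle-rich arrays both calls were lost (adjusted p = 0.0518 and 0.0604), and the 48 h call was also lost with the actin difference (adjusted p = 0.0979) or the muscle score (adjusted p = 0.0535).

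SF3A3, a subunit of the SF3A complex, was lower by 0.09 at 6 h and differed by 0.04 at 24 h (adjusted p = 0.78). It rose by 0.25 at 48 h (adjusted p = 0.00652, 7 of 8 dogs), from a control median of 7.49 to 7.74. That call was lost without the muscle-rich arrays (adjusted p = 0.0912). SF3B2 went the other way: its control values ran from 6.46 to 7.08 with a median of 6.82, and its 48 h values from 6.33 to 6.83 with a median of 6.55. SF3B2 was lower by 0.26 at 6 h in 8 of 8 dogs, differed by -0.15 at 24 h (adjusted p = 0.335) and fell by 0.24 at 48 h (adjusted p = 0.0403), where 6 of 8 dogs were lower. Its 48 h call was lost in 10 of 20 alternatives, including the model without the dog (adjusted p = 0.0578), median centring (adjusted p = 0.0885) and the loss of any 1 of dogs 2, 3, 5, 6, 7 or 8.

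SF3B1, the largest SF3B subunit, differed by -0.06, 0.01 (adjusted p = 0.98) and 0.08 (adjusted p = 0.546) at 6 h, 24 h and 48 h, and its 95% confidence interval at 48 h was -0.08 to 0.23. SF3A2 was the other linked gene above control at 6 h, by 0.07, with differences of -0.16 at 24 h (adjusted p = 0.348) and -0.11 at 48 h (adjusted p = 0.455). The sign of its 6 h value turned to -0.07 with the actin difference in the model.

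The authors' deposited table covers all 44 genes, linked or not. Its values for the linked genes equal those of a model that ignores the dog, and how the others were computed is not known here. At 6 h its fold was below -1 for 35 of the 44 genes (79.5%) and above 1 for 4 (9.09%), against 34.1% and 34.8% of the whole table, and 5 genes passed an adjusted p of 0.05 downward, where 1.4% of the table did and 0.0643% passed upward. These 6 h counts are again a description. At 24 h, 11 genes were below -1 and 25 above 1 in the authors' deposited table, with 3 passing upward and 2 downward (2.85% and 4.38% of the table). At 48 h, 9 were below -1 and 33 above 1, or 75% of the 44 beside 36.2% of the table. Of the 44 genes, 18 passed upward at 48 h and 3 downward in the authors' deposited table, against 12.5% and 8.22% of all its genes. By class, 10 of 17 HNRNP, 5 of 8 SNRP, 3 of 8 SF3 and 0 of 10 SRSF genes passed upward at 48 h in the authors' deposited table.

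The 21 genes known only from the authors' deposited table added no late decrease that passed. At 6 h, 2 of them passed downward: HNRNPA3, with a fold of -1.4 (adjusted p = 0.021), and HNRNPAB, with -1.5 (adjusted p = 0.023), both encoding hnRNP proteins of the A/B type. At 24 h the authors' deposited table has 1 of the 21 passing, SNRPD3, an Sm ring protein, at 1.2 (adjusted p = 0.019). At 48 h 8 passed upward. HNRNPA2B1, HNRNPM and HNRNPUL2 each had a fold of 1.3 with a p given as below 0.001, and HNRNPA3, SF3A1, SNRPD2, SNRPD3 and SNRPN each had 1.2 in the authors' deposited table. SNRPN and SNRPB encode closely related proteins, and SNRPB had 1.1 (adjusted p = 0.185) at 48 h in the authors' deposited table. Neither gene was linked to a probe set, so whether the probes of 1 also read the other is not known here.

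**Figure D4:**
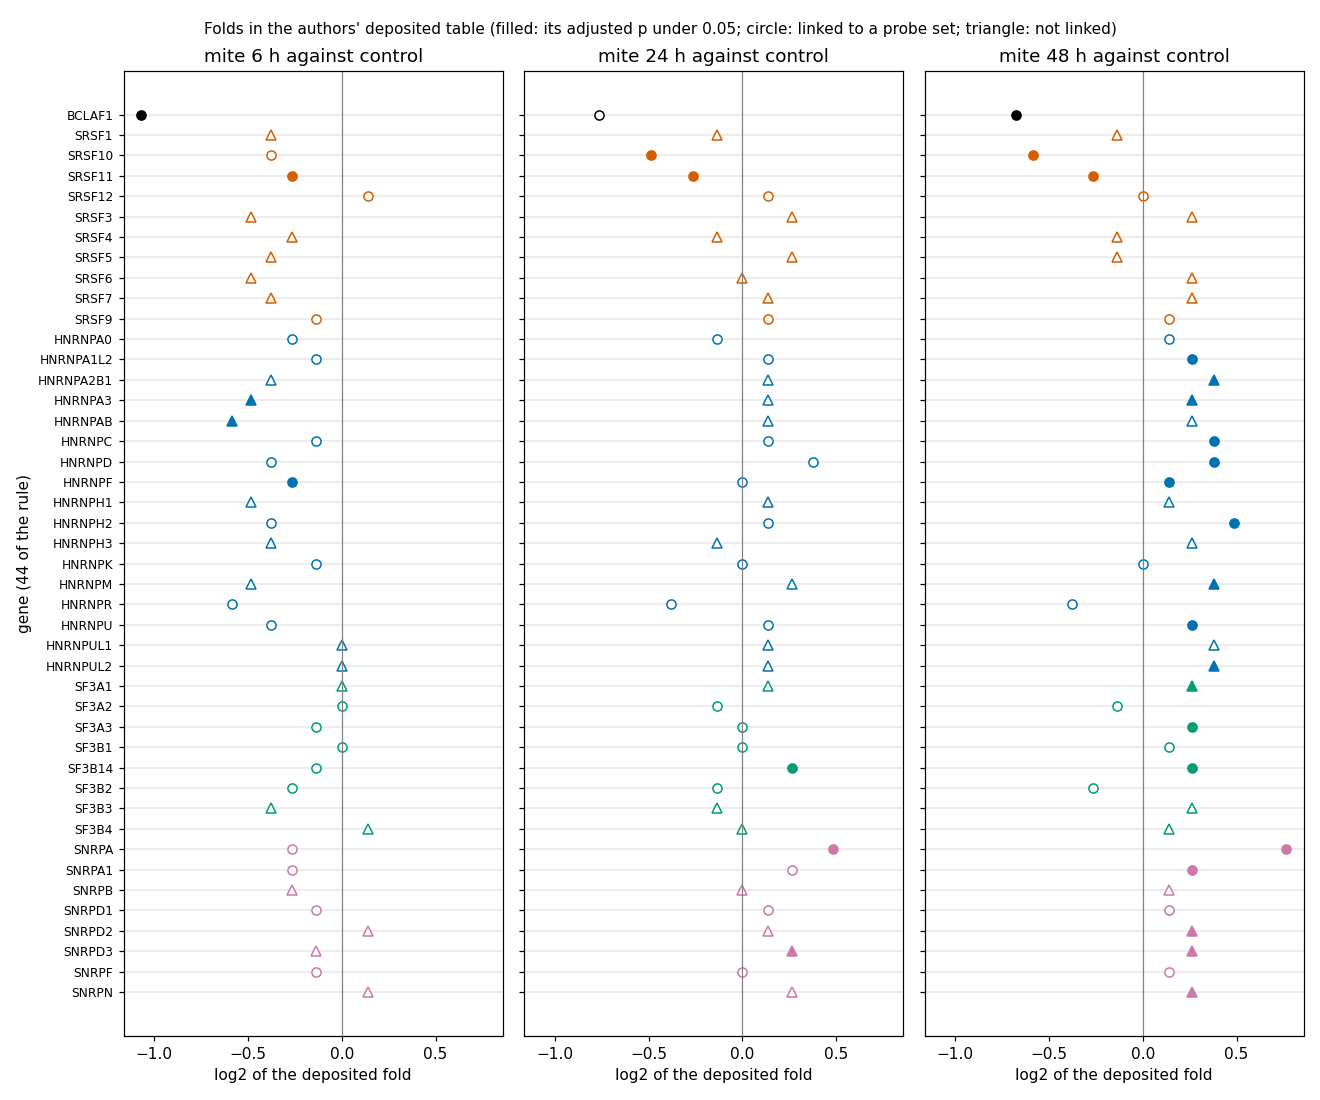
Folds of all 44 splicing genes in the authors' deposited table, as log2 of the fold against control, at 6 h, 24 h and 48 h. Filled symbols have an adjusted p under 0.05 in that table, circles are genes linked to a probe set and triangles are genes that are not; 35 of 44 lie below 0 at 6 h and 33 of 44 above 0 at 48 h.

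Other genes of the splicing pathway were followed through 5 lists of 154 genes, of which 69 were linked to a probe set. Those lists were also chosen with earlier results of these data known. At 6 h, 60 of the 69 were below control (median -0.20), with 0 called higher and 15 lower. Of all 10512 linked genes 5109 were below control at 6 h (median 0.01), with 0.323% called higher and 4.08% lower. Nothing is read from the 6 h counts, because the lists were chosen with earlier results known. At 24 h, 5 rose and 20 fell (median -0.08), and at 48 h, 9 rose and 16 fell (median 0.01). The background is the same for these lists: 3.63% of all linked genes were called higher and 7.22% lower at 24 h, and 12.2% and 10.9% at 48 h. As shares of the 69 genes, the calls were 7.25% higher and 29% lower at 24 h and 13% higher and 23.2% lower at 48 h, so the share that rose at 48 h was near the background. At 48 h 3 rose and 19 fell with the actin difference in the model, with the muscle score 3 and 16, and without the muscle-rich arrays 5 and 15. From 24 h to 48 h 0 of 69 were called in limma, with 8 at an unadjusted p under 0.05, beside 1485 of all 10512 linked genes. Without the dog as a block the 24 h count of 25 was 14, and without dog 3 it was 16.

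The decreases that passed included relatives and partners of BCLAF1 and of the SR proteins. Among 12 linked of 25 SR protein kinases and SR-related regulators, 7 fell and 0 rose at 24 h (median -0.35), and 6 fell and 0 rose at 48 h (median -0.34), where 7.22% and 10.9% of all linked genes fell. ACIN1, a nuclear protein that joins the exon junction complex, had 5.69 ± 0.37 (SD, n = 8) in control skin and fell by 0.91 at 24 h (adjusted p = 0.00274) and by 0.88 at 48 h (adjusted p = 0.00115), in 8 of 8 dogs each. THRAP3, the relative of BCLAF1, had 5.49 ± 0.24 in control skin and fell by 0.79 at 24 h (adjusted p = 0.00525) and 0.75 at 48 h (adjusted p = 0.00288). At 6 h ACIN1 was lower by 0.96 and THRAP3 by 0.78. From 6 h to 48 h the group means of ACIN1 were 4.73, 4.78 and 4.81, and those of THRAP3 were 4.71, 4.70 and 4.74. LUC7L2, a U1-associated factor, fell by 0.67 and 0.59 at 24 h and 48 h (adjusted p = 0.000619 and 0.000512), and RBM39, a relative of U2AF, fell by 0.64 and 0.68 (adjusted p = 0.000543 and 5.44e-05). SRPK2, a kinase that phosphorylates SR proteins, fell by 0.44 and 0.58 (adjusted p = 0.0262 and 0.00148), and its 24 h call was lost after quantile normalization (adjusted p = 0.0605) and median centring (adjusted p = 0.0566).

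Genes of the LSm proteins, which form the ring of the U6 snRNP, and of snRNP assembly factors were counted next. Of 11 linked of 24, 3 rose and 1 fell at 24 h, and 5 rose and 1 fell at 48 h (median 0.22), where 3.63% and 12.2% of all linked genes rose. At 48 h 2 rose and 0 fell with the actin difference in the model, and without the muscle-rich arrays 1 rose and 1 fell at 24 h. LSM7 rose by 0.40 at 24 h (adjusted p = 0.00391) and by 0.56 at 48 h (adjusted p = 3.55e-05), LSM5 rose by 0.30 (adjusted p = 0.00645) and 0.35 (adjusted p = 0.000536), each in 8 of 8 dogs, and LSM4 rose by 0.36 at 48 h (adjusted p = 0.00151). The 24 h calls of LSM7 and LSM5 were lost without the muscle-rich arrays (adjusted p = 0.161 and 0.0511), and the 48 h call of LSM4 with the actin difference (adjusted p = 0.0523). STRAP, a factor of the SMN complex that assembles Sm rings, rose by 0.46 at 24 h (adjusted p = 0.0231), or 0.39 with the actin difference (adjusted p = 0.0632). COIL, the scaffold protein of Cajal bodies where snRNPs mature, was the exception and fell by 0.34 at both times (adjusted p = 0.0102 and 0.00424). The 48 h call of COIL was lost with the actin difference (adjusted p = 0.0524).

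Of 16 linked of 40 core spliceosome genes, 1 rose and 4 fell at 24 h, and 3 rose and 3 fell at 48 h, against 12.2% and 10.9% of all linked genes at 48 h. At 48 h 1 rose and 6 fell with the actin difference, and 0 rose and 3 fell with the muscle score or without the muscle-rich arrays. CDC5L, of the complex that activates the spliceosome, fell by 0.50 at 24 h (adjusted p = 0.00236) and 0.39 at 48 h (adjusted p = 0.00641), and CWC22, which brings EIF4A3 to the spliceosome, fell by 0.50 and 0.40 (adjusted p = 0.00378 and 0.00777). PRPF39, a U1-associated factor, and DHX8, the helicase that releases spliced mRNA, rose by 0.33 and 0.23 at 48 h (adjusted p = 0.0264 and 0.00807). Both calls were lost with the muscle score (adjusted p = 0.191 and 0.0891) and without the muscle-rich arrays (adjusted p = 0.135 and 0.116).

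Among 18 linked of 44 other regulators of alternative splicing, 1 rose and 4 fell at 24 h (3.63% and 7.22% of all linked genes), and 0 rose and 3 fell at 48 h (12.2% and 10.9%). KHDRBS3, of the STAR family of RNA-binding proteins, was 0.14 above control at 6 h and fell by 0.55 at 24 h (adjusted p = 0.00556) and 0.73 at 48 h (adjusted p = 9.92e-05). EWSR1, an RNA-binding protein of the FET family, fell by 0.60 and 0.68 (adjusted p = 0.000714 and 3.52e-05). RBM3, a cold-inducible RNA-binding protein, rose by 0.49 at 24 h (adjusted p = 0.0185).

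Of 12 linked of 21 genes of the exon junction complex, mRNA export and nonsense-mediated decay, 0 rose and 4 fell at 24 h (3.63% and 7.22% of all linked genes), and 1 rose and 3 fell at 48 h (12.2% and 10.9%). UPF2, a decay factor, fell by 0.53 and 0.66 (adjusted p = 0.00261 and 6.86e-05), and THOC2, of the TREX export complex, fell by 0.46 and 0.41 (adjusted p = 0.00212 and 0.002). EIF4A3, the helicase at the core of the exon junction complex, rose by 0.24 at 48 h (adjusted p = 0.0118), a call lost with the actin difference (adjusted p = 0.201), the muscle score (adjusted p = 0.0717) and without the muscle-rich arrays (adjusted p = 0.0642).

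**Figure D5:**
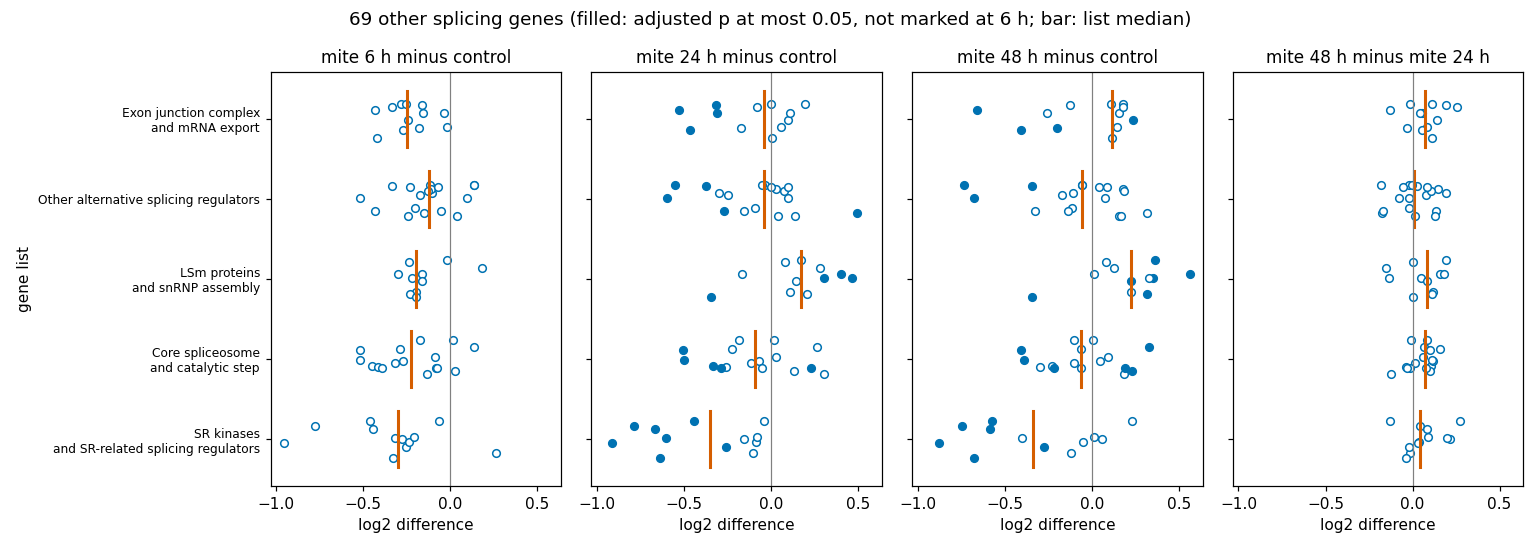
Differences in log2 signal (horizontal axis) for 69 linked genes of 5 other splicing lists, 1 row of points per list. Panels show 6 h, 24 h and 48 h against control, and 48 h against 24 h. Filled points have an adjusted p at or under 0.05 (not marked at 6 h) and bars are list medians; the SR-related list has its median at -0.35 at 24 h and -0.34 at 48 h, and the LSm list at 0.17 and 0.22.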

How the data were processed

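Expression arrays of 32 biopsies were used as deposited: the authors' table holds log2 signals for 43035 probe sets, and their gene table gives, for each gene, a signed fold with its adjusted p-value at 6 h, 24 h and 48 h. The array design, and the summary and normalization behind the deposited log2 values, are not stated in the sources used here. The 44 members and the other splicing and marker lists were chosen with earlier results of these data known. A gene was linked to a probe set when its 3 folds and 3 p-values equalled those of an ordinary linear model without the dog for 1 probe set and no other, with a tolerance of 0.05 on the fold and of 0.001 on p. This linked 10512 genes of 17107 (61.4%), and 25.8 on average, at most 30, after the values were shuffled 5 times.

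limma 3.58.1 in R 4.3.3 fitted 4 groups with the dog as a fixed block to 42860 probe sets, after 175 array controls were left out and with no filter on dim ones, leaving 21 residual degrees of freedom. P-values are two-sided with Benjamini-Hochberg adjustment over all of these, and a probe set passed at 0.05. Arrays are paired by dog, as the labels name it. Deviations from the group means correlated by 0.16 on average over 48 same-dog pairs of arrays, between -0.46 and 0.70, with 33 above 0.1. Whole-array measures were compared within dogs by an exact permutation test over 256 sign changes, adjusted over 24 tests. The code was tested on simulated data. P-values measure the spread between biopsies of these 8 dogs, whose number limits the precision.

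In each class, values are given for the linked members with the largest differences from control at 6 h (up to 6), at 24 h and at 48 h and for 48 h against 24 h (up to 4 each), and the nearest to 0 at 6 h (up to 2). For other lists, up to 4 genes with the largest difference among those that passed are named. Alternatives were no dog or a random dog, 2 groups only, quantile normalization, median centring, leaving out dim probe sets, a variance trend with intensity, array weights, actin or muscle as a covariate, and each dog left out. Fits without the 10 muscle-rich arrays (score above 6) and without the 24 h array of dog 5 were added after the data were seen. Of the 44 symbols, 42 match the RefSeq gene table, and HNRNPA1L2 and SF3B14 are given as the authors' table names them.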

Additional observations from a re-analysis of the deposited data

Results flagged for a closer look

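Over 92 groups of 8 arrays (23 genes in 4 groups), 7 held 1 array that stood apart from the other 7 by Dixon's test, and chance gives about 1 in 20 groups. At 24 h, dog 5 was the lowest for HNRNPA0 (5.02, next 5.40) and for SF3A2 (8.61, next 9.12), and that array also had the lowest median of the 32. Dog 7 was the highest at 6 h for SF3B2 (6.86, next 6.58) and for SRSF11 (5.75, next 5.34). The remaining 3 arrays were dog 8 at 24 h for SNRPF, the lowest at 1.51 beside 1.76, dog 1 at 24 h for SRSF12, the highest at 6.37 beside 5.78, and the control of dog 4 for SRSF9, the lowest at 10.89 beside 11.03.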

How the results depend on the processing

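Of 1836 values of the 23 genes over 4 comparisons and 20 alternatives, 1712 kept their side of the threshold, 84 were no longer called, 32 were called in addition, and 8 uncalled values moved by more than the spread between dogs; 0 called values changed sign. For the 23 genes at 6 h, the count of 6 was 0 with actin as a covariate (0 of all probe sets were then called in limma, with 4007 at an unadjusted p under 0.05). It was 3 with the muscle score, 0 without muscle-rich arrays (again 0 of all probe sets called, 1779 unadjusted), and 1 to 7 with 1 dog left out. The count of 6 at 24 h was 2 without muscle-rich arrays and 3 to 8 with a dog left out. At 48 h the count of 13 was 8 with actin and 10 to 14 with a dog left out, and from 24 h to 48 h it was 0 to 1. The dog is a true pairing here: without it as a block the counts were 5, 6, 12 and 0, and its loss ended only the calls of HNRNPD at 6 h and SF3B2 at 48 h. For the other splicing lists the 6 h count of 15 was 0 with actin, 9 with muscle, 7 with no block, 0 without muscle-rich arrays and 6 to 20 with a dog left out (6, 7, 8 and 9 without dogs 3, 8, 6 and 2). Their 24 h count of 25 was 14 with no block and 16 to 25 with a dog left out, their 48 h count of 25 was 19 to 24, and from 24 h to 48 h it was 0 to 2. The cause of these shifts was not tested. Fits without muscle-rich arrays use 22 arrays, among which only dog 8 has both its control and its 6 h array. The 6 h median of the 23 genes, -0.23, was then -0.10.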
